A study of Homo sapiens with 8 samples.

Results

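The genes described here encode the machinery of macroautophagy. They were chosen by symbol, as every row named ATG, WIPI, ULK, GABARAP or MAP1LC3 with a number or a suffix, plus 15 partners such as BECN1, RB1CC1, PIK3C3, VMP1, OPTN and TFEB. The rule found 48 genes among the 22458 with a gene symbol. SQSTM1 was outside the rule, and GABARAPL1 was not analysed here. The study measured mRNA in NCH644, a stem-like glioblastoma line grown as neurospheres, so every array came from 1 cell line and no untransformed cell is among the groups. Cells were kept for 24 h with DMSO as vehicle, with 5 µM OTX015, with 5 µM panobinostat, or with both drugs at 5 µM each. OTX015 blocks the BET bromodomain proteins, which read acetylated histones, and panobinostat blocks histone deacetylases. Each of the 4 groups held 2 arrays that the submitters call biological duplicates. What separated the duplicates is not said, so p-values measure only the spread between these arrays.

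Macroautophagy encloses cytoplasm in a double membrane, the autophagosome, and delivers it to the lysosome. A kinase complex around ULK1 starts the process, a lipid kinase complex around PIK3C3 and BECN1 marks the site, WIPI proteins read that mark, and ATG2 with ATG9 and VMP1 supplies lipid to the growing membrane. Conjugation enzymes then attach the ubiquitin-like ATG8 proteins (LC3 and GABARAP) to that membrane, where they hold cargo receptors, and the transcription factors TFEB and TFE3 are known to switch on many genes of this route and of the lysosome. mRNA levels alone do not measure how much cargo is degraded.

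Values are log2 signals, and changes are differences of group means on the log2 scale ± standard error (SE) with n = 2 arrays a group. A gene was called higher or lower at an adjusted p under 0.05 (limma, Benjamini-Hochberg over all 22458 genes of a comparison). Array medians lay between 3.87 and 4, and duplicates correlated across genes at 0.9903 to 0.993. A background level of 3.07 was taken from 374 olfactory receptor genes, as the 95th percentile of their group means. Names such as DMSO 1 and combination 2 stand for the first DMSO array and the second array with both drugs, and a range beside them is the adjusted p without each in turn. Of the 48 genes, 42 averaged above it in all groups, 3 in only some groups (TFEB, ATG9B and the pseudogene ULK4P3, each under it with OTX015) and 3 in none (MAP1LC3C, GABARAPL3 and the pseudogene MAP1LC3BP1). All 10 glioma and neural markers were above background in every group. Their summed level (log2) was 12.57 to 12.66 with DMSO, 12.71 to 12.81 with OTX015, 12.05 to 12.13 with panobinostat and 11.80 to 11.82 with both drugs, so it was lowest with both drugs. This sum hides single markers that moved apart. With both drugs 7 of the 10 were called lower (70%, beside 18.4% of all genes), with PTPRZ1 at -5.06 (adjusted p = 3.01e-07). VIM was called higher, by 1.53 (adjusted p = 3.18e-05), and 2 markers were not called. Under background in every group were 6 of 8 microglia markers (PTPRC, CD14, ITGAM, AIF1, TYROBP and C1QA), 4 of 4 lymphocyte, 4 of 5 endothelial, 3 of 5 epithelial and 2 of 5 fibroblast markers. The summed microglia list still ran from 6.18 to 6.65 with DMSO, 6.90 to 6.92 with OTX015, 9.51 to 9.75 with panobinostat and 10.40 to 10.63 with both drugs, through CD68 and CSF1R. Panobinostat also raised the fibroblast marker COL1A1 by 1.61 (adjusted p = 0.000276) and the epithelial marker KRT18 by 1.69 (adjusted p = 0.000417). The other 4 fibroblast markers were not called there, and 3 of the 5 epithelial markers were called higher. The part of these marker shifts in the results that follow was not tested. In such bulk RNA, a different mix of cell states and a different RNA content per cell cannot be told apart.

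Panobinostat raised 25 of the 48 genes and lowered 3. Over all genes, 19.4% were called higher and 17.9% lower in that comparison, against 52.1% and 6.25% of the autophagy genes. In either direction the shares were 37.2% of all genes and 58.3% of the autophagy genes. The median change was 0.49, beside -0.05 over all genes, and 11 of the 25 rose at least 2-fold. With both drugs, 28 genes were higher and 3 lower than with DMSO (58.3% higher, against 19.2% of all genes, with 18.4% of all genes lower and 37.5% called in either direction), and the median was 0.65 beside 0.01. OTX015 alone raised 10 genes and lowered 0 (20.8%, against 7.97% of all genes called higher, 8.49% lower and 16.5% in either direction), with a median of 0.18 beside -0.02. At an unadjusted p under 0.05 in limma, 17 were higher and 3 lower with OTX015, beside 6375 of all 22458 genes in either direction. WIPI1 was the gene of the 10 that rose 2-fold. The OTX015 count was not stable, since leaving out any single array lowered it, and it was 3 when OTX015 and DMSO were fitted alone. Calls also ended without arrays that held panobinostat. Those arrays do not enter this difference and bear only on its estimate of the spread.

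Most of these genes are expressed, and expressed genes were called more often. Among the 13963 genes whose mean over all arrays reached the background level, a split added after the values were seen, 27.7% were higher with panobinostat, 27.4% with both drugs and 12.4% with OTX015. The matching shares of the 45 autophagy genes were 55.6%, 62.2% and 22.2%. Calls in either direction were closer, at 60% of these autophagy genes and 52.9% of these genes in all with panobinostat, 66.7% and 54.3% with both drugs, and 22.2% and 24.6% with OTX015. Role groups and lists below are set beside the shares of all genes, which are lower than those of genes at or above background. The comparisons with DMSO share its 2 arrays, so they are not independent of each other. Arrays of a treatment and DMSO did not overlap for 53.7% of all genes with OTX015, 66.6% with panobinostat and 64.4% with both drugs. A lack of overlap was thus common and is given below only as a description.

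**Figure D1:**
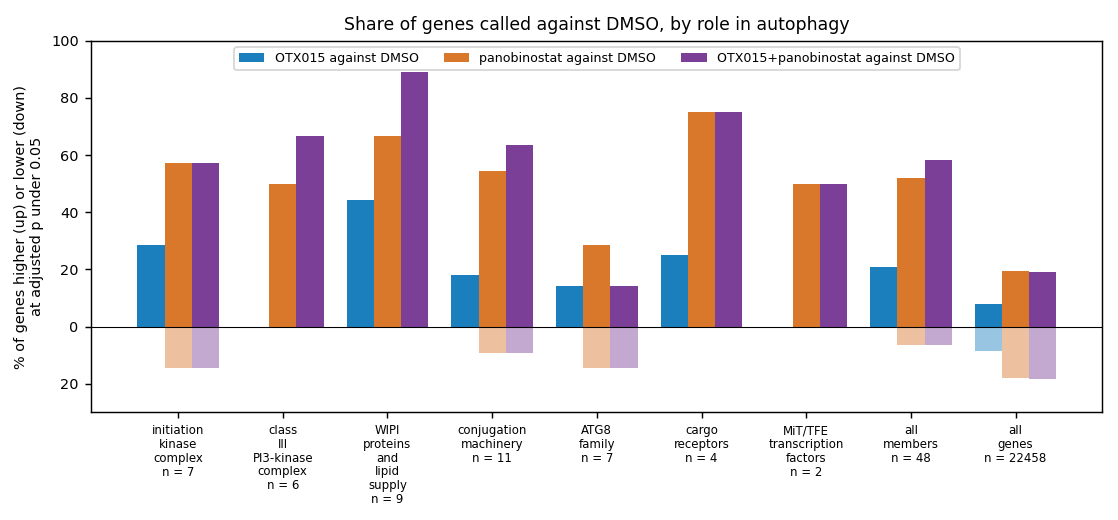
Percent of genes called higher (bars up) or lower (pale bars down) against DMSO at adjusted p under 0.05, for each role group, all 48 autophagy genes and all 22458 genes, with a colour for each treatment. With panobinostat, 52.1% of the autophagy genes were higher against 19.4% of all genes.

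Across the 3 comparisons with DMSO, 9 genes were higher in each: ATG10, ATG2A, ATG4B, RB1CC1, TAX1BP1, ULK1, VMP1, WIPI1 and WIPI2. A further 15 were higher with panobinostat and with both drugs and not called with OTX015. Another 4 were called only with both drugs (ATG14, ATG5, ATG9A and WDR45B), and 3 were lower with panobinostat and with both drugs (ATG4D, ULK3 and the dim MAP1LC3C). GABARAPL2 was called with each drug alone and had an adjusted p of 0.0501 with both. The remaining 16 were called in none of the 3. The group mean was lowest with DMSO for 30 of the 48 genes and highest with both drugs for 21. Matching counts over all genes were not made, so these counts have no background to be read against. All 3 comparisons use the same DMSO arrays, so a low DMSO mean raises all 3 changes together. The 9 genes higher in each also rest on their OTX015 calls. Of the 10 calls with OTX015, only that of WIPI1 held in every setting tried.

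**Figure D2:**
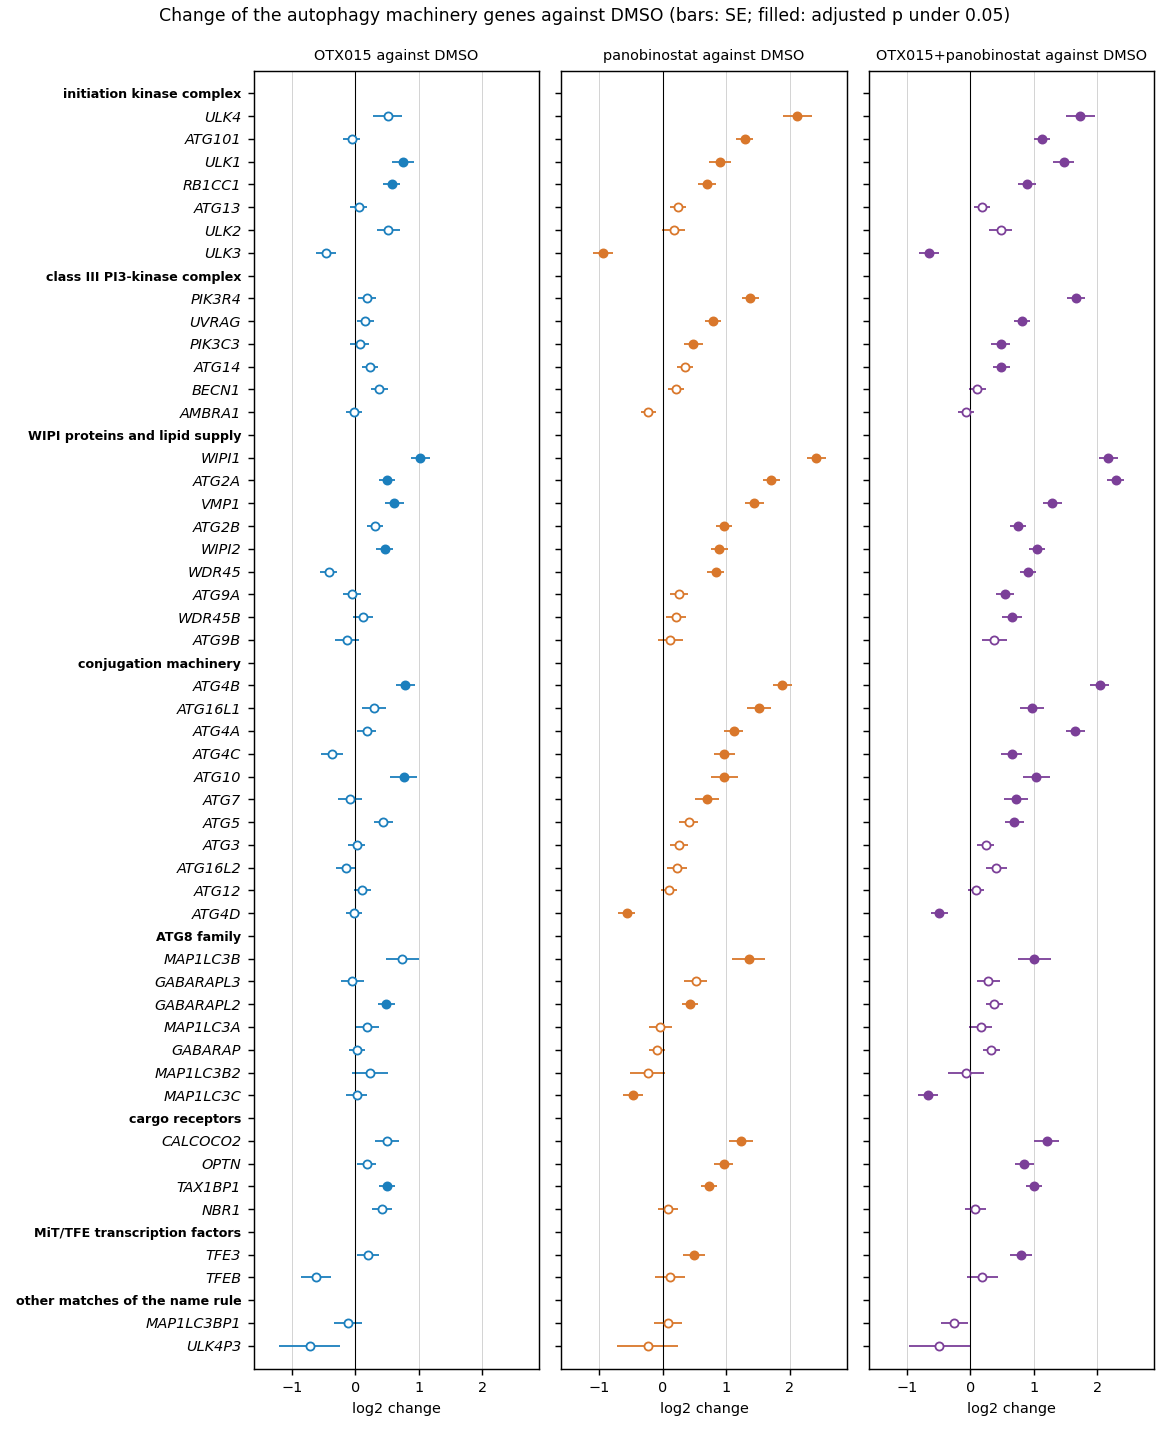
Log2 change against DMSO (x axis, points, with bars for the SE) of the 48 autophagy genes, grouped by role, with OTX015 (left), panobinostat (middle) and both drugs (right), filled points being called. The panobinostat and both-drug panels hold 25 and 28 called rises, and ULK3, ATG4D and MAP1LC3C are the called falls.

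The promoters of a few of these genes show what the 250 bases before the start site look like. TFEB and TFE3 bind the letters CACGTG, and the longer form TCACGTGA is a core of the element named CLEAR. Both are the same on either strand, and the longer contains the shorter. RefSeq promoters (GRCh38.p14) were found for 40 of the 48 genes, and the first listed entry was taken for each, so other start sites of 9 genes were not searched. ATG4D, GABARAPL3, MAP1LC3A, RB1CC1, ULK4, ULK4P3, UVRAG and WDR45B were not matched. The letters CACGTG stood in 3 of the 40 windows (7.5%), those of ATG14, ATG3 and ULK3, and in 6.49% of the windows of all 27305 genes in the promoter table. None of the 22 windows of genes that rose with panobinostat held it (0%). TCACGTGA stood in 0 of the 40 and in 0.89% of all. After these counts were known, GGGCGG, the GC box bound by SP1-type factors, was searched on both strands as well, and none of its matches overlapped a CACGTG in these genes. It stood in 24 of the 40 windows (60%) and 42.3% of all, in 17 of the 22 that rose with panobinostat (77.3%) and 6 of the 16 not called (37.5%). The median G and C content of these last sets was 65.8% and 57.4%, beside 58% over all windows. The 16 not called include MAP1LC3BP1, under background in every group, and ATG9B, under it with OTX015, neither with a GC box. TFEB, also under background with OTX015, held 1. Whether the first listed entry of a gene is its main start site was not checked. The contrast between called and uncalled windows depends on that choice too. These matches describe letters, not bound sites, and a missing match says nothing about a factor. Capitals mark CACGTG and the GC box, which reads GGGCGG on either strand and so also appears as CCGCCC, in the windows that follow. They are shown for the gene with the largest rise, a lipid-transfer gene of the same role group, the LC3 gene that rose, a gene that fell and a gene with CACGTG near its start. WIPI1 lies on the minus strand at chr17:68457497-68457746, ATG2A on the minus strand at chr11:64917210-64917459 and MAP1LC3B on the plus strand at chr16:87392086-87392335. ULK3 lies on the minus strand at chr15:74843157-74843406 and ATG14 on the minus strand at chr14:55411831-55412080. The WIPI1 window held 9 GC boxes, that of MAP1LC3B 3, that of ATG2A 1 and that of ULK3 3. CACGTG began 172 bases before the ULK3 start and 21 bases before the ATG14 start.
WIPI1: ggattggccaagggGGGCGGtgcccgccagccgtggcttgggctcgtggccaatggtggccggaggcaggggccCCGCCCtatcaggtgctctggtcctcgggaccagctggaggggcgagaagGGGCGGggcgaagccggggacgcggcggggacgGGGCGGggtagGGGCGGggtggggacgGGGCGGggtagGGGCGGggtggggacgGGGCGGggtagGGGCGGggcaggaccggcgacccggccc
ATG2A: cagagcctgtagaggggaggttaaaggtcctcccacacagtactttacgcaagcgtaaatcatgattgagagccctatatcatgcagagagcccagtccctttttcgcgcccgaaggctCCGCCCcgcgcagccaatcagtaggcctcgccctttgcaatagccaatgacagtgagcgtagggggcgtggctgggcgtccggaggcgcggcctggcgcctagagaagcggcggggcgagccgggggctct
MAP1LC3B: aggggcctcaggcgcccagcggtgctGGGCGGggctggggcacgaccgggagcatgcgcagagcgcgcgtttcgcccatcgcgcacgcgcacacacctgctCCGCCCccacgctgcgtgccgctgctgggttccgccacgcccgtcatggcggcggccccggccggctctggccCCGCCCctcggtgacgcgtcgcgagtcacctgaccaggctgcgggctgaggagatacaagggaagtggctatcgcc
ULK3: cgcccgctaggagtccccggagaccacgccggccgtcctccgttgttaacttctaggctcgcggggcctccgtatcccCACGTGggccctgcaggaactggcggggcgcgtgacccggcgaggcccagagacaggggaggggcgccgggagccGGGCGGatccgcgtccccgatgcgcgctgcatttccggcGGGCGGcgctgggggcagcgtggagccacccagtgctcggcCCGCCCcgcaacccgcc
ATG14: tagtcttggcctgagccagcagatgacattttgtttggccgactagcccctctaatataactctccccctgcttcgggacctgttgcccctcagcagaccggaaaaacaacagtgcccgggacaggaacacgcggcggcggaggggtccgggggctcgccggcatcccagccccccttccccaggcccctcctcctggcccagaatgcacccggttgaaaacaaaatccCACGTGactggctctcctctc

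Of the 7 genes of the initiation kinase group, panobinostat and the combination each raised 4 and lowered 1, and OTX015 raised 2. Called in either direction were 71.4% with panobinostat, 71.4% with both drugs and 28.6% with OTX015, beside 37.2%, 37.5% and 16.5% of all genes. ULK1, the kinase that starts autophagosome formation, read 5.11 and 5.37 with DMSO, 5.93 and 6.05 with OTX015, 5.96 and 6.32 with panobinostat and 6.61 and 6.80 with both drugs. No treated array fell within the DMSO range, and both arrays with both drugs were above all others. Its changes were 0.75 ± 0.17 with OTX015 (adjusted p = 0.018), 0.90 with panobinostat (adjusted p = 0.00275) and 1.47 with both (adjusted p = 0.000169). ATG101, which stabilises the ATG13 subunit of the complex, read 6.55 and 6.64 with DMSO and 6.60 and 6.46 with OTX015. It read 7.97 and 7.79 with panobinostat and 7.78 and 7.67 with both drugs. Its OTX015 arrays overlapped the DMSO arrays (-0.06, 95% interval -0.37 to 0.24), while it rose by 1.29 ± 0.13 with panobinostat (adjusted p = 0.000109) and by 1.13 with both drugs (adjusted p = 0.000194).

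ULK4, a pseudokinase grouped here by name and not known as part of this complex, read 4.42 and 3.65 with DMSO, 4.44 and 4.64 with OTX015, 6.12 and 6.19 with panobinostat and 5.74 and 5.79 with both drugs. The DMSO arrays differed by more than the duplicates of any other group, and all panobinostat-treated arrays lay well above them. It rose by 2.12 ± 0.23 with panobinostat (4.36-fold, adjusted p = 0.000128) and by 1.73 with both drugs (adjusted p = 0.000362), and the pseudogene ULK4P3 makes its assignment to a single locus uncertain. RB1CC1, the FIP200 scaffold of the complex, rose by 0.57 with OTX015 (adjusted p = 0.0281), 0.69 with panobinostat (adjusted p = 0.00479) and 0.89 with both drugs (adjusted p = 0.00108). ULK3, a related kinase with roles in cytokinesis and Hedgehog signalling, went the other way, at 5.41 and 5.61 with DMSO, 4.95 and 5.14 with OTX015, 4.60 and 4.53 with panobinostat and 5.03 and 4.68 with both drugs. Its lowest arrays were those with panobinostat alone. It fell by 0.94 on the log2 scale with panobinostat (SE 0.16, adjusted p = 0.0017) and by 0.65 with both drugs (adjusted p = 0.0117), and the value with OTX015 was -0.46 (adjusted p = 0.0937). ATG13 and ULK2 were not called, with changes between 0.05 and 0.52 in the 3 comparisons. Leaving out 1 array ended the OTX015 calls of ULK1 (adjusted p 0.066 to 0.108, without DMSO 1 or either OTX015 array) and RB1CC1 (0.105 to 0.132, without DMSO 2 or either OTX015 array). It also ended the combination call of ULK3 (0.0677 to 0.0815, without DMSO 2 or combination 2).

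**Figure D3:**
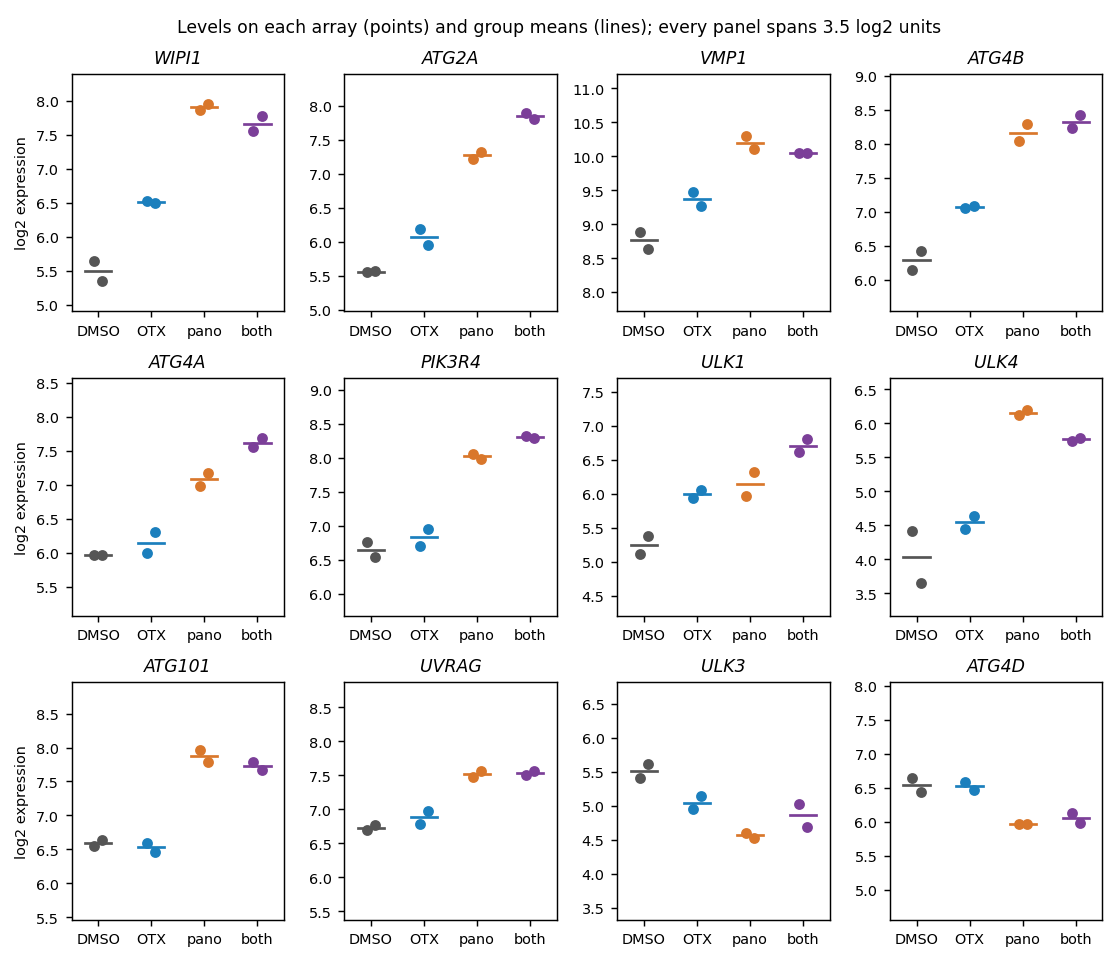
Log2 signal (y axis) on each of the 8 arrays (points) with group means (lines) for 12 autophagy genes by treatment (x axis), each panel with its own range. For WIPI1 and ATG2A the 4 groups do not overlap, and ULK3 and ATG4D are lower with panobinostat.

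In the class III lipid kinase complex of 6 genes, panobinostat raised 3 and both drugs 4, and OTX015 changed 0, with 1 (BECN1) at an unadjusted p under 0.05. The called shares were 50% with panobinostat, 66.7% with both drugs and 0% with OTX015, beside 37.2%, 37.5% and 16.5% of all genes. Among genes at or above background, 52.9%, 54.3% and 24.6% were called, so the share of this group with panobinostat was not above theirs. PIK3R4, the VPS15 subunit that carries the catalytic subunit, read 6.76 and 6.54 with DMSO, 6.71 and 6.95 with OTX015, 8.06 and 7.99 with panobinostat and 8.32 and 8.30 with both drugs. Its OTX015 arrays overlapped those with DMSO, and all 4 arrays with panobinostat stood above them. The rise was 1.38 ± 0.14 with panobinostat (2.59-fold, adjusted p = 0.000109) and 1.66 with both drugs (3.16-fold, adjusted p = 3.32e-05). UVRAG, the subunit of the complex that acts on endosomes and autophagosome maturation, read 6.69 and 6.77 with DMSO, 6.79 and 6.98 with OTX015, 7.48 and 7.56 with panobinostat and 7.51 and 7.56 with both drugs. The arrays with panobinostat, alone or in the combination, were nearly alike. The change was 0.79 ± 0.13 with panobinostat (adjusted p = 0.00128) and 0.81 with both drugs (adjusted p = 0.00112).

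ATG14, which directs the kinase to the forming autophagosome, read 5.95 and 5.96 with DMSO, 6.21 and 6.17 with OTX015, 6.41 and 6.20 with panobinostat and 6.49 and 6.40 with both drugs. All treated arrays were above the DMSO arrays, and the difference passed the test with both drugs (0.49 ± 0.13, adjusted p = 0.0161) and not with panobinostat (0.35, adjusted p = 0.0629). The catalytic subunit gene PIK3C3 changed by 0.48 with panobinostat (adjusted p = 0.0318) and 0.48 with both drugs (adjusted p = 0.0331). BECN1, the Beclin 1 core subunit, read 6.29 and 6.10 with DMSO, 6.58 and 6.59 with OTX015, 6.46 and 6.35 with panobinostat and 6.29 and 6.33 with both drugs. Its highest arrays were those with OTX015 alone, and no change passed the test (0.38 with OTX015, adjusted p = 0.0817, and 0.21 and 0.11 with panobinostat and both drugs). AMBRA1, a regulator that binds Beclin 1, was not called either, with changes of -0.02, -0.23 and -0.07. The PIK3C3 calls ended when each array was centred on its median (adjusted p = 0.0614 with panobinostat and 0.0546 with both drugs). They also ended with only the groups compared (0.0593 and 0.0682) and without DMSO 1 or either array of the treated group. The ATG14 call ended without DMSO 1, DMSO 2 or combination 1 (0.053 to 0.0834).

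The WIPI and lipid supply group held the largest rise among the 48 genes, and 8 of its 9 genes were higher with both drugs, 6 with panobinostat and 4 with OTX015. This is 88.9%, 66.7% and 44.4% called, beside 37.5%, 37.2% and 16.5% of all genes in either direction. WIPI1, which binds the lipid made by the kinase complex, read 5.64 and 5.35 with DMSO, 6.52 and 6.50 with OTX015, 7.87 and 7.95 with panobinostat and 7.55 and 7.77 with both drugs. The 4 groups did not overlap, and panobinostat alone stood highest. It rose by 1.02 ± 0.15 with OTX015 (2.02-fold, adjusted p = 0.00275), 2.42 ± 0.15 with panobinostat (5.35-fold, adjusted p = 7.65e-06) and 2.17 ± 0.15 with both drugs (4.49-fold, adjusted p = 9.4e-06). ATG2A, a lipid-transfer protein that WIPI proteins help to place, read 5.55 and 5.57 with DMSO, 6.18 and 5.95 with OTX015, 7.22 and 7.32 with panobinostat and 7.90 and 7.81 with both drugs. Its groups did not overlap either, and here both drugs together stood highest. It rose by 0.50 ± 0.13 with OTX015 (adjusted p = 0.0353), 1.71 with panobinostat (3.27-fold, adjusted p = 2.43e-05) and 2.29 with both drugs (4.9-fold, adjusted p = 4.25e-06).

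VMP1, a membrane scramblase of the endoplasmic reticulum, read 8.88 and 8.64 with DMSO, 9.47 and 9.27 with OTX015, 10.29 and 10.10 with panobinostat and 10.05 and 10.05 with both drugs. It rose by 0.61 ± 0.15 with OTX015 (adjusted p = 0.0227), 1.44 with panobinostat (2.71-fold, adjusted p = 9.56e-05) and 1.29 with both drugs (adjusted p = 0.000153). All treated arrays were above those with DMSO. WIPI2, which recruits ATG16L1 to the membrane, rose by 0.46, 0.89 and 1.05 with OTX015, panobinostat and both drugs (adjusted p = 0.0458, 0.000749 and 0.000268). Its relative WDR45 (WIPI4) had a value of -0.42 with OTX015 (adjusted p = 0.0609) and rose by 0.83 with panobinostat (adjusted p = 0.00103) and 0.91 with both drugs (adjusted p = 0.000579). ATG2B, the paralogue of ATG2A, rose by 0.96 with panobinostat (adjusted p = 0.000442) and 0.75 with both drugs (adjusted p = 0.00165). ATG9A, the scramblase of the seed vesicles, read 8.04 and 8.01 with DMSO, 7.89 and 8.07 with OTX015, 8.34 and 8.24 with panobinostat and 8.47 and 8.67 with both drugs. OTX015 overlapped DMSO, and the rise passed the test only with both drugs (0.54 ± 0.14, adjusted p = 0.0129, against 0.26 and 0.172 with panobinostat). WDR45B (WIPI3) was likewise called with both drugs (0.66, adjusted p = 0.0115), and ATG9B was not called in any comparison. Leaving out single arrays ended the OTX015 calls of ATG2A and WIPI2 for each of the 8 arrays (0.0508 to 0.193 and 0.0545 to 0.193) and of VMP1 for DMSO 2 and either OTX015 array (0.0546 to 0.135). It also ended the combination calls of ATG9A (0.0516 to 0.0842, without DMSO 2 or combination 2) and WDR45B (0.066 to 0.0712, without DMSO 2 or combination 1).

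Of the 11 conjugation genes, panobinostat raised 6 and lowered 1, both drugs raised 7 and lowered 1, and OTX015 raised 2. In either direction this is 63.6%, 72.7% and 18.2% called, beside 37.2%, 37.5% and 16.5% of all genes. With OTX015, 24.6% of genes at or above background were called, a larger share than in this group. The proteases of the ATG4 family, which trim ATG8 proteins before conjugation and release them afterwards, did not move as a block. ATG4B, the main protease for LC3B, read 6.15 and 6.42 with DMSO, 7.06 and 7.09 with OTX015, 8.04 and 8.29 with panobinostat and 8.23 and 8.42 with both drugs. It was higher on every treated array, by 0.79 ± 0.15 with OTX015 (adjusted p = 0.00965), 1.88 with panobinostat (3.68-fold, adjusted p = 3.1e-05) and 2.04 with both drugs (4.12-fold, adjusted p = 1.6e-05). ATG4A, which favours GABARAP proteins, read 5.96 and 5.97 with DMSO, 5.99 and 6.31 with OTX015, 6.98 and 7.18 with panobinostat and 7.55 and 7.69 with both drugs. It rose by 1.12 ± 0.15 with panobinostat (adjusted p = 0.000476) and by 1.65 with both drugs (3.15-fold, adjusted p = 4.7e-05), and was not called with OTX015 (0.18). ATG4C rose by 0.97 with panobinostat (adjusted p = 0.00198) and 0.65 with both drugs (adjusted p = 0.0152). ATG4D, in contrast, read 6.64 and 6.44 with DMSO, 6.58 and 6.47 with OTX015, 5.97 and 5.97 with panobinostat and 6.12 and 5.98 with both drugs. Its arrays with OTX015 lay within the DMSO range, and it fell by 0.57 on the log2 scale with panobinostat (adjusted p = 0.00848) and by 0.49 with both drugs (adjusted p = 0.0182).

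Among the enzymes and scaffolds of conjugation, ATG16L1, the scaffold that places the ligase on the membrane, read 5.25 and 5.61 with DMSO, 5.74 and 5.72 with OTX015, 7.03 and 6.84 with panobinostat and 6.17 and 6.63 with both drugs. Panobinostat alone was highest, at 1.51 ± 0.19 (2.84-fold, adjusted p = 0.000319), and the combination changed by 0.97 (adjusted p = 0.00351). ATG7, the activating enzyme, read 5.68 and 5.47 with DMSO, 5.19 and 5.78 with OTX015, 6.19 and 6.35 with panobinostat and 6.29 and 6.30 with both drugs. The OTX015 duplicates spanned the DMSO arrays, and the rise was 0.69 ± 0.19 with panobinostat (adjusted p = 0.0212) and 0.72 with both drugs (adjusted p = 0.018). ATG10, the enzyme that joins ATG12 to ATG5, rose by 0.76, 0.97 and 1.04 with OTX015, panobinostat and both drugs (adjusted p = 0.0434, 0.00662 and 0.00467). ATG5 read 6.49 and 6.26 with DMSO, 6.83 and 6.80 with OTX015, 6.91 and 6.65 with panobinostat and 6.95 and 7.17 with both drugs. All treated arrays were above DMSO. Only the combination passed the test (0.69 ± 0.15, adjusted p = 0.00671, against 0.44 and 0.0894 with OTX015 and 0.41 and 0.0666 with panobinostat). ATG3, the enzyme that transfers ATG8 proteins to lipid, ATG12 and ATG16L2 were not called against DMSO, with changes between -0.15 and 0.41. ATG16L2, a paralogue of ATG16L1, was higher with both drugs than with OTX015 (0.56, adjusted p = 0.0272), a call that ended with centring (0.0638), with only the groups compared (0.0506) and without OTX015 1 or combination 2 (0.139 to 0.17). Leaving out 1 array ended both ATG7 calls (0.0521 to 0.111 with panobinostat and 0.0654 to 0.0924 with both drugs, without DMSO 2 or either array of the treated group), the panobinostat call of ATG4D (0.0522, without DMSO 1) and its combination call (0.0987 to 0.0997, without DMSO 1 or combination 2). It ended the combination call of ATG4C (0.0909 to 0.0922, without DMSO 2 or combination 2) and the OTX015 calls of ATG4B (0.0524 to 0.0619, without DMSO 1 or either OTX015 array) and ATG10 (0.0648 to 0.239, without either DMSO array, OTX015 2 or either panobinostat array).

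The 7 genes grouped here by name as the ATG8 family held 2 higher and 1 lower with panobinostat, 1 and 1 with both drugs, and 1 higher with OTX015. In either direction 42.9% were called with panobinostat, beside 37.2% of all genes. The shares were under those of all genes with both drugs (28.6% beside 37.5%) and with OTX015 (14.3% beside 16.5%). MAP1LC3B, which encodes LC3B, read 5.14 and 5.55 with DMSO, 6.31 and 5.87 with OTX015, 6.82 and 6.57 with panobinostat and 6.72 and 6.00 with both drugs. Its duplicates were furthest apart with both drugs, where they spanned part of the range of each drug alone, and every treated array was above DMSO. It rose by 1.35 ± 0.26 with panobinostat (2.55-fold, adjusted p = 0.00352) and 1.01 with both drugs (adjusted p = 0.0149), with 0.74 for OTX015 (adjusted p = 0.0998). The near-identical copies MAP1LC3B2 and MAP1LC3BP1 make its assignment to 1 locus uncertain. GABARAPL2 (GATE-16) read 6.73 and 6.52 with DMSO, 7.13 and 7.09 with OTX015, 7.09 and 7.02 with panobinostat and 7.06 and 6.95 with both drugs. Its 6 treated arrays lay close together above DMSO, with changes of 0.49, 0.43 and 0.38 (adjusted p = 0.0379, 0.0305 and 0.0501).

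GABARAP itself read 10.23 and 10.36 with DMSO, 10.35 and 10.29 with OTX015, 10.24 and 10.15 with panobinostat and 10.69 and 10.55 with both drugs. It was not called, and the interval of its change was -0.26 to 0.32 with OTX015, -0.38 to 0.19 with panobinostat and 0.04 to 0.62 with both drugs. MAP1LC3A and MAP1LC3B2 were not called. MAP1LC3C (LC3C) was under the background level in every group, with arrays of 2.28 and 2.40 for DMSO, 2.57 and 2.16 for OTX015, 1.87 and 1.88 for panobinostat and 1.74 and 1.59 for both drugs. It was called lower with panobinostat (adjusted p = 0.0483) and both drugs (adjusted p = 0.00958), and no fold is given for signals this low. GABARAPL3, also under background, read between 1.91 and 2.79 and shares its sequence closely with GABARAPL1. The combination call of MAP1LC3B ended without DMSO 1 or combination 1 (0.0931 to 0.0948). The OTX015 call of GABARAPL2 ended without any array but DMSO 1 and with only the groups compared (0.0906). Its panobinostat call ended with centring (0.0865), with only the groups compared (0.0665) and without DMSO 2 or either panobinostat array. The panobinostat call of MAP1LC3C ended without any DMSO, panobinostat or combination array. It also ended with quantile normalization (0.0569), an intensity trend (0.0679), weights per array (0.0541) and a replicate block (0.051). Its combination call ended without DMSO 2 or combination 2.

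**Figure D4:**
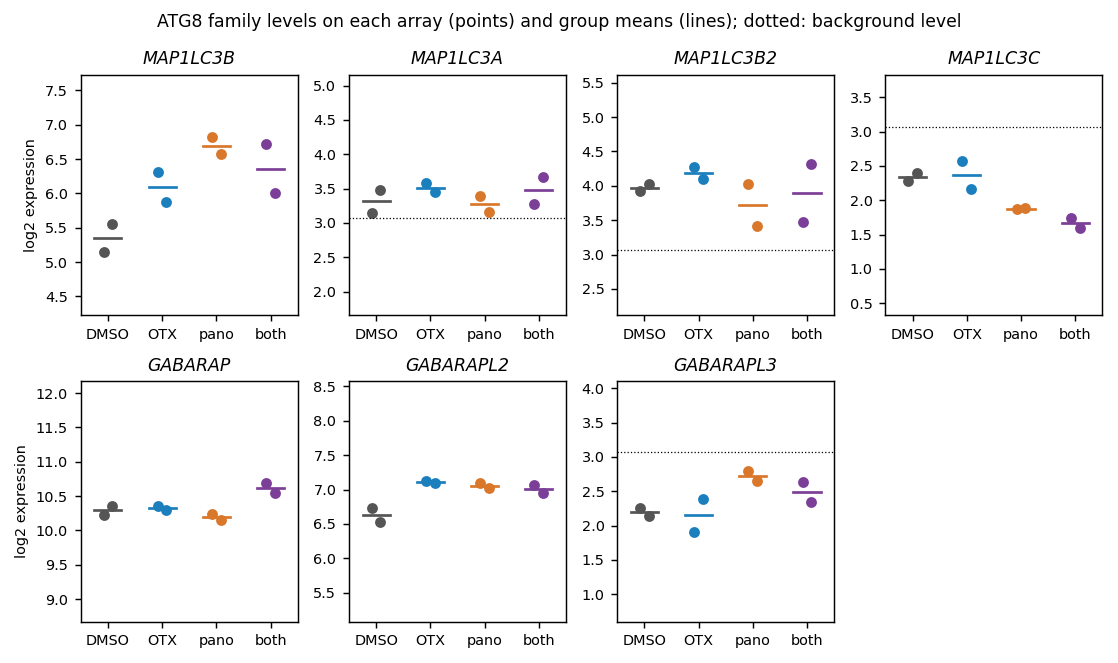
Log2 signal on each array (points, with group means as lines) of the 7 ATG8 family genes in the 4 treatment groups, with the background level of 3.07 as a dotted line where it lies in range. MAP1LC3B and GABARAPL2 stand above their DMSO arrays with panobinostat, while MAP1LC3C and GABARAPL3 lie under background in all groups.

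Cargo receptors, which link ubiquitin-tagged cargo to ATG8 proteins, rose for 3 of 4 genes with panobinostat and with both drugs, and for 1 with OTX015. These are 75%, 75% and 25% called, beside 37.2%, 37.5% and 16.5% of all genes in either direction. CALCOCO2 (NDP52), a receptor for bacteria and mitochondria, read 6.80 and 6.45 with DMSO, 7.15 and 7.10 with OTX015, 7.61 and 8.10 with panobinostat and 7.78 and 7.86 with both drugs. The OTX015 arrays lay between DMSO and the other groups. It rose by 1.23 ± 0.19 with panobinostat (2.34-fold, adjusted p = 0.00094) and by 1.20 with both drugs (adjusted p = 0.00105), with 0.50 for OTX015 (adjusted p = 0.117). TAX1BP1, a related receptor for protein aggregates, read 8.04 and 7.98 with DMSO, 8.57 and 8.45 with OTX015, 8.81 and 8.67 with panobinostat and 8.96 and 9.06 with both drugs. Its groups did not overlap, and the rises were 0.50, 0.73 and 1.00 (adjusted p = 0.0288, 0.00186 and 0.000297).

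OPTN, the receptor optineurin, read 5.49 and 5.20 with DMSO, 5.67 and 5.38 with OTX015, 6.29 and 6.33 with panobinostat and 6.21 and 6.17 with both drugs. OTX015 overlapped DMSO, and the rise was 0.96 ± 0.15 with panobinostat (adjusted p = 0.00124) and 0.85 with both drugs (adjusted p = 0.00242). NBR1, a receptor that works beside the p62 protein, read 6.00 and 6.10 with DMSO, 6.26 and 6.68 with OTX015, 6.15 and 6.12 with panobinostat and 6.16 and 6.09 with both drugs. Its highest arrays were those with OTX015, with a change of 0.42 (95% interval 0.06 to 0.78, adjusted p = 0.116), and it was not called. The OTX015 call of TAX1BP1 ended when any array of DMSO or OTX015 was dropped (0.0763 to 0.148).

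TFE3, which with TFEB controls many autophagy and lysosome genes, read 6.74 and 6.57 with DMSO, 6.93 and 6.79 with OTX015, 7.30 and 6.99 with panobinostat and 7.61 and 7.30 with both drugs. It rose by 0.80 ± 0.17 with both drugs (adjusted p = 0.00492) and by 0.49 with panobinostat (adjusted p = 0.0468). The panobinostat call ended with centring (adjusted p = 0.0909), with weights per array (0.0526) and with only the groups compared (0.065). It also ended without either DMSO array, either OTX015 array or panobinostat 1. TFEB was close to background, at 3.43 and 3.26 with DMSO, 3.05 and 2.41 with OTX015, 3.50 and 3.42 with panobinostat and 3.27 and 3.80 with both drugs. Only the OTX015 arrays were below those with DMSO, and no comparison with DMSO passed the test (-0.62 with OTX015, adjusted p = 0.127). Against OTX015, TFEB was at least 1.31-fold higher with panobinostat (adjusted p = 0.0495) and at least 1.38-fold higher with both drugs (adjusted p = 0.0328). The first of these calls ended without OTX015 2, either DMSO array or either panobinostat array (0.0631 to 0.288) and the second without OTX015 2 or combination 2 (0.188 to 0.212). Both ended with centring (0.089 and 0.0567) and quantile normalization (0.0833 and 0.0619), the first also with unnamed probe sets included (0.0506) and the second with only the groups compared (0.0672). The pseudogenes ULK4P3 and MAP1LC3BP1 were not called in any comparison. ULK4P3 read 4.42 and 2.76 on the DMSO duplicates alone, a wider gap than in any other group, while MAP1LC3BP1 stayed between 0.87 and 1.55.

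The effect of each drug can be read without and with the other from comparisons that share no array, a pairing added after the values were seen. Panobinostat added to OTX015 raised 24 of the 48 genes and lowered 2 (50% higher, beside 15.3% of all genes higher, 14.7% lower and 30% in either direction), with a median of 0.47. The 26 calls became 17, 15 and 13 without OTX015 1, OTX015 2 and combination 2. Of the 25 genes raised by panobinostat alone and these 24, 20 were the same, which is 80% of the first and 83.3% of the second set, beside 54.5% and 68.8% over all genes. The largest of these rises on OTX015 were ATG2A at 1.79 ± 0.13 (adjusted p = 2.76e-05), PIK3R4 at 1.48 (adjusted p = 0.000106), ATG4A at 1.47 (adjusted p = 0.000146) and WDR45 at 1.34 (adjusted p = 0.000111). OTX015 added to panobinostat raised 1 gene, ATG2A, and lowered 0 (2.08%, beside 4.33% of all genes higher, 6.1% lower and 10.4% in either direction). In that comparison 6 of the 48 genes had an unadjusted p under 0.05 in limma, beside 5826 of all 22458. ATG2A rose by 0.58 ± 0.13 there (adjusted p = 0.0291), and this call ended when only the groups compared were fitted (0.0553) or when any of their 4 arrays was left out (0.0797 to 0.159). With an intensity trend in the fit, ATG4A, GABARAP, ULK1 and WDR45B were called as well, 5 genes in all. Panobinostat stood above OTX015 for 19 genes and below it for 2 (39.6% higher, beside 16% of all genes higher, 13.3% lower and 29.3% in either direction), led by ULK4 at 1.62 (adjusted p = 0.000887), WIPI1 at 1.40 (adjusted p = 0.000204) and ATG101 at 1.35 (adjusted p = 0.000147). These 19 include TFEB, under background with OTX015, and GABARAPL3, under it in every group.

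The interaction compares the drugs' joint effect with the sum of their single effects. WIPI1 and VMP1 were called lower and 0 genes higher (4.17% lower, beside 7.42% of all genes lower, 6.32% higher and 13.7% in either direction). An unadjusted p under 0.05 in limma was seen for 12 of the 48 genes, beside 6247 of all 22458. OTX015 changed WIPI1 by 1.02 without panobinostat and by -0.25 with it, an interaction of -1.27 ± 0.21 (adjusted p = 0.00674). For VMP1 the values were 0.61 and -0.15, an interaction of -0.76 ± 0.21 (adjusted p = 0.0433). The VMP1 call ended without any array but DMSO 1 (0.0708 to 0.145), and that of WIPI1 held in every setting tried. ULK3 (0.75, adjusted p = 0.0638), ATG16L1 (-0.84, adjusted p = 0.0775), ATG4B (-0.63, adjusted p = 0.098) and MAP1LC3B (-1.08, adjusted p = 0.0981) had the next smallest adjusted p and were not called. With an intensity trend in the fit, 7 genes were called.

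**Figure D5:**
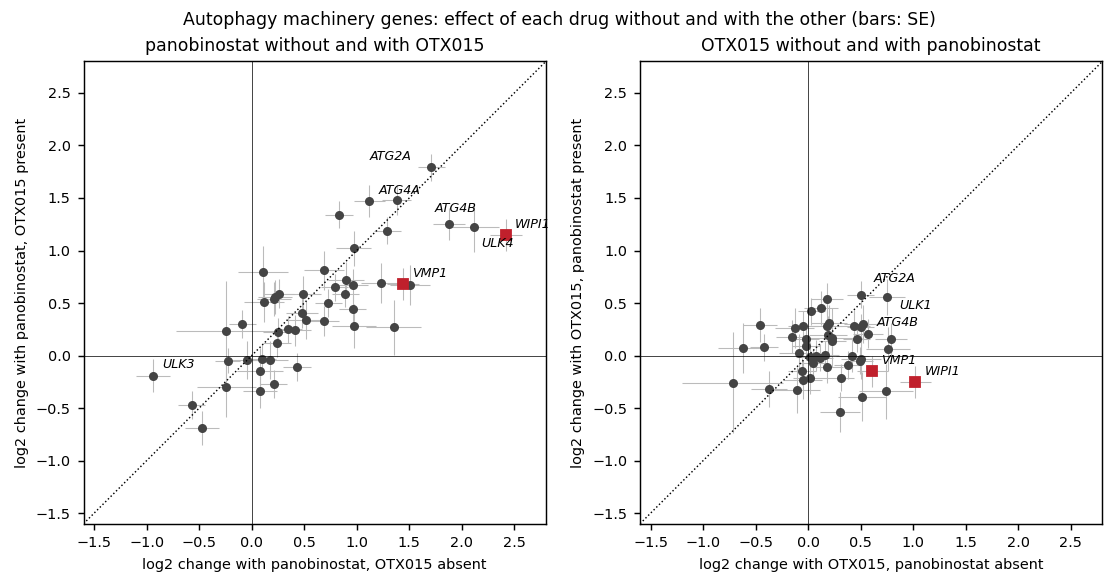
Log2 change (± SE) of the 48 autophagy machinery genes with panobinostat in the absence (x) and presence (y) of OTX015, left, and with OTX015 in the absence (x) and presence (y) of panobinostat, right. Red squares mark WIPI1 and VMP1, whose interactions were called, and the dotted line marks equal effects.

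Other genes of the pathway, from lists kept apart from the 48, were counted in the same fit. Over all genes, 37.2% were called in either direction with panobinostat, 37.5% with both drugs and 16.5% with OTX015. Of 26 genes for autophagosome fusion and maturation, 17 were higher and 1 lower with panobinostat, 14 and 3 with both drugs and 10 and 1 with OTX015, which is 69.2%, 65.4% and 42.3% called. TMEM41B, a scramblase that partners VMP1, rose by 1.86 ± 0.14 with panobinostat (adjusted p = 2.01e-05) and by 1.36 with both drugs (adjusted p = 9.49e-05). YKT6, a SNARE of autophagosome fusion, rose by 1.42 with panobinostat (adjusted p = 5.59e-05) and 1.74 with both drugs (adjusted p = 1.59e-05). LAMP2 was lower with both drugs than with panobinostat (-1.37, adjusted p = 0.00147), an interaction of -1.98 ± 0.19 (adjusted p = 0.00125). In the interaction, 8 of the 26 were called lower and 0 higher (30.8%, beside 7.42% of all genes lower and 13.7% in either direction). Of 19 other cargo receptors and adaptors, 8 were higher and 3 lower with panobinostat, 8 and 5 with both drugs and 5 and 2 with OTX015, which is 57.9%, 68.4% and 36.8% called, with a median change of 0.08 with panobinostat. SQSTM1, which encodes p62, read 9.52 and 9.29 with DMSO, 10.8 and 10.69 with OTX015, 11.56 and 11.55 with panobinostat and 11.43 and 11.41 with both drugs. It rose by 1.34 ± 0.13, 2.15 and 2.01 (adjusted p = 0.000527, 7.65e-06 and 7.58e-06). CALCOCO1, a receptor for the endoplasmic reticulum and Golgi, rose by 2.80 ± 0.16 with panobinostat (adjusted p = 5.63e-06) and by 2.34 with both drugs (adjusted p = 9.34e-06). Among the falls of this list, FKBP8 changed by -1.05 with OTX015 (adjusted p = 0.00493) and PHB2 by -1.23 with both drugs (adjusted p = 6.36e-05).

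Of 34 genes for mTORC1, AMPK and nutrient sensing, which set the activity of the ULK1 complex, 16 were higher and 6 lower with panobinostat, 17 and 8 with both drugs and 8 and 3 with OTX015, which is 64.7%, 73.5% and 32.4% called. The share lower with panobinostat was 17.6%, beside 17.9% of all genes. RRAGC, a GTPase that brings mTORC1 to the lysosome, rose by 1.66 ± 0.14 with panobinostat (adjusted p = 3.73e-05) and by 1.63 with both drugs (adjusted p = 3.48e-05). AKT1S1, the mTORC1 inhibitor PRAS40, fell by 1.61 on the log2 scale with panobinostat (adjusted p = 8.23e-05) but was 0.46 above DMSO with both drugs (adjusted p = 0.049), an interaction of 2.41 ± 0.22 (adjusted p = 0.00106). SESN3, a sestrin that restrains mTORC1, rose by 1.83 ± 0.14 with OTX015 (adjusted p = 0.000224) and by 1.32 with panobinostat (adjusted p = 0.000137). With both drugs its value was -0.35 (adjusted p = 0.0896), an interaction of -3.51 ± 0.20 (adjusted p = 0.000442). Of 17 transcription regulators of autophagy genes, 4 were higher and 2 lower with panobinostat, 5 and 3 with both drugs and 2 and 1 with OTX015, which is 35.3%, 47.1% and 17.6% called, close to all genes for each drug alone. DDIT3, the stress factor CHOP, rose by 4.61 ± 0.15 with panobinostat (adjusted p = 9.92e-07) and by 4.83 with both drugs (adjusted p = 5.83e-07), and was not called with OTX015 (-0.06, adjusted p = 0.838). E2F1 changed by -1.48 with panobinostat (adjusted p = 0.000538) and by -1.58 with both drugs (adjusted p = 0.000352). NFE2L2 changed by -1.03 with both drugs (adjusted p = 0.00135).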

How the data were processed

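Total RNA from 8 NCH644 samples, 4 groups of 2 by sample title, was labelled with biotin for single-colour arrays, per the labels' protocols. The deposited log2 values were produced by the authors with the RMA method of affy 1.36.1 in R 2.15.1, as the submitters' processing notes record. RMA evens out array distributions, so a change in total RNA per cell is not visible, and dim signals are compressed. Of 23786 probe sets, 22458 had exactly 1 gene symbol in the platform annotation and 1328 were not listed. All 8 arrays entered a limma fit (limma 3.58.1, R 4.3.3) with 4 group means, and 7 comparisons were tested two-sided, with 4 residual and 4.41 prior degrees of freedom and no filter on low values. The number of arrays limits precision. The procedure was tested on simulated data with independent noise and a small set of probe sets changed with OTX015 alone. That setting is simpler than these data, so it does not test the calls made here.

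The genes, lists and settings were chosen with earlier results of these data known. Arrays are given for up to 3 genes a role with the largest change against DMSO and for a fixed set that includes BECN1, ATG5, ATG7, ATG9A and NBR1. ULK3, ATG4D and SQSTM1 were added after their values were seen. Outside genes are named from the 3 largest called changes per list and comparison. A fold against a group under background is a lower bound against the background level. Alternatives were dropping each array in turn, centring on medians, quantile normalization, dropping the dimmest 25% of genes, testing unnamed probe sets too, fitting the compared groups alone, robust moderation with an intensity trend, weights per array and a replicate block. Promoters come from RefSeq.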

Additional observations from a re-analysis of the deposited data

Results flagged for a closer look

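The effect of OTX015 on WIPI1 differed with and without panobinostat by a test of the difference itself, an interaction of -1.27 (adjusted p = 0.00674). The effect of OTX015 was 1.02 without panobinostat and -0.25 with it. For VMP1 the same test gave an interaction of -0.76 (adjusted p = 0.0433), from effects of 0.61 and -0.15. With 2 arrays a group, no group was large enough to look for a single array far from the others.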

How the results depend on the processing

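Of 119 calls of autophagy genes over the 7 comparisons, 69 held under every alternative, 50 ended under at least 1, and 0 changed direction. All 50 ended on leaving out 1 array, and 26 also ended under another setting. Not each of these 26 is named in the gene passages. Calls that held in every setting numbered 22 of 28 for panobinostat, 21 of 31 for both drugs and 1 of 10 for OTX015, that of WIPI1. They numbered 10 of 26 for the combination against OTX015 and 14 of 21 for panobinostat against OTX015. For the combination against panobinostat it was 0 of 1, and for the interaction 1 of 2. Leaving out 1 array gave 23 to 28 called genes for panobinostat, 24 to 31 for both drugs, 1 to 7 for OTX015 (10 with all arrays), 13 to 27 for the combination against OTX015 (26), 0 to 1 for the combination against panobinostat (1), 14 to 21 for panobinostat against OTX015 (21) and 1 to 3 for the interaction (2). The lowest count for OTX015, 1, came without OTX015 2, and those of 17, 15 and 13 for the combination against OTX015 came without OTX015 1, OTX015 2 and combination 2. Fitting only the groups compared gave 3 for OTX015 and 0 for the combination against panobinostat. For the latter, leaving out the lowest genes gave 2 and the intensity trend 5, and the trend gave 7 for the interaction. Same-numbered arrays correlated in their deviations at 0.0467 to 0.118, positive for each of the 6 pairs of groups. Whether the array numbers mark a shared batch was not tested. With the replicate block 3 genes were called for the combination against panobinostat. The block ended 5 calls: WIPI2 with OTX015 (0.0564), MAP1LC3C with panobinostat (0.051), and GABARAPL3, MAP1LC3C and TFEB for panobinostat against OTX015 (0.064, 0.0529 and 0.067). The cause was not tested. Centring each array on its median moved the median of all genes by -0.106 for the combination against OTX015 and by -0.128 for panobinostat against OTX015.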
